A study of Mus musculus with 6 samples.

Results

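Clone c of a mouse embryonic stem cell line was compared with clones a and b of the same line. The comparison sets 2 samples, clone c untreated and clone c after 4-hydroxytamoxifen (4OHT), against the 4 samples of clones a and b, with treatment as a covariate, and these 6 samples are the whole series. All were E14tg2a cells of 129SV background with a stable cRAF-ErT2 cassette, a RAF kinase tied to a hormone-binding domain that 4OHT switches on, and the promoter of the cassette is not given in the labels. Cells were grown in serum with LIF and 2 µM CHIR99021, a GSK3 inhibitor, and moved 24 h before treatment to serum with LIF and 250 nM PD173074, an FGF receptor inhibitor. They then stayed untreated or received 250 nM 4OHT for 2 h, and 5 mM ethynyl uridine, a labelled building block of RNA, was present for the last 15 min. The labelled RNA was captured, so that a value reports mainly RNA made in that window. Each clone gave 1 untreated and 1 treated library, and nothing in the labels says that clones were handled on separate days, so the p-values here reflect only how far such libraries vary. Only genes on chromosomes 1 to 19 are described.

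Clones of a line start from single cells, and each carries forward whatever the founding cell had gained, lost or set in its chromatin. Mouse embryonic stem cells often gain whole or partial chromosomes in culture, chromosome 8 being a frequent one. DNA was not measured in these samples, so copy number was not tested. ERK signalling, which 4OHT turns on here, is known for driving immediate early genes and for pushing these cells out of naive pluripotency.

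Total counts ran from 7,295,334 to 12,168,380 per library, and clone c was the shallowest of the clones in both treatments, with 9,745,747 counts untreated and 7,295,334 after 4OHT. A count of 3 stood for 0.247 to 0.411 CPM (counts scaled to an equal library total). The 13 genes with the most counts took 15.5% to 18.0% of each library of clones a and b, and 19.97% and 19.4% of the untreated and treated libraries of clone c, and their part in the results below was not tested. The 10 embryonic stem cell markers summed to between 2177 and 2989 CPM in all libraries, while 19 fibroblast and feeder genes summed to 39.1 to 51.8 CPM untreated and 197 to 212 after 4OHT, with 3 of them at 0 everywhere. For the receptor part of the cassette no difference was called: Esr1 read 35.4, 33.9 and 38.4 CPM untreated and 111, 106 and 109 treated in clones a, b and c (log2 difference of clone c from a and b 0.07 ± 0.07, edgeR adjusted p = 0.58). Whether reads of the cassette fall on this gene was not tested.

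Of 13,283 autosomal genes tested, 769 (5.79%) were higher and 848 (6.38%) lower in clone c than in clones a and b at an edgeR adjusted p below 0.05. Most of these differences were small: the median size among called genes was 0.33 on the log2 scale, and 31 genes were at least doubled and 23 at least halved. After removing the treatment means, both clone c libraries lay above all 4 libraries of a and b for 2689 of the 13,283 genes and below them for 2999. Genes called higher or lower were chosen on that same difference, so their separation is no further support. Without the untreated library of clone c the counts were 364 higher and 312 lower, without its treated library 337 and 363, and DESeq2 gave 400 and 530. With all 6 libraries, clone b against clone a gave 36 higher (0.271%) and 30 lower (0.226%), but 285 and 284 without the untreated library of clone c and 283 and 259 without its treated one. The cause of that rise was not tested. With all libraries, clone c against a alone gave 900 (6.78%) and 922 (6.94%), and clone c against b alone 584 (4.4%) and 695 (5.23%), comparisons that share libraries. No gene was switched fully on or off: none had at most 3 counts in every library on 1 side and at least 30 in every library on the other.

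Chromosome 8 held 312 of the 769 higher genes. On it 312 of 694 tested genes (45.0%) were higher in clone c and 3 were lower, and the median difference over the chromosome was 0.32, a 1.25-fold level, with an interquartile range of 0.19 to 0.44. The medians of the other 18 autosomes lay between -0.06 and 0.01, and outside chromosome 8 the calls were 457 higher (3.63%) and 845 lower (6.71%) of 12,589 genes. The share of autosomal counts on chromosome 8 was, for clones a, b and c in turn, 4.33%, 4.74% and 5.24% without 4OHT, and 4.10%, 4.48% and 5.22% with it. The order a, b, c was thus the same in both treatments, and the median difference of clone c was 0.31 untreated and 0.31 after 4OHT.

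Genes of many functions on chromosome 8 were higher. Tpm4, an actin-binding tropomyosin (chromosome 8, 72,134,975 to 72,153,142), read 46.6, 48.4 and 79.6 CPM untreated and 68.8, 79.9 and 117 CPM after 4OHT in clones a, b and c. Clone c was the highest in both treatments (0.70 ± 0.07, adjusted p = 1.8e-05). Hmox1, the haem-degrading enzyme (chromosome 8, 75,093,621 to 75,100,589), read 62.3, 74.8 and 104 CPM untreated and 339.9, 381 and 596 treated (0.67 ± 0.07, adjusted p = 2.0e-05). The endoplasmic reticulum chaperone Calr read 155, 146 and 209.6 and 156, 160.1 and 229 CPM (0.50 ± 0.05), and Nob1, needed for small ribosomal subunit maturation, 85.9, 90.3 and 126 and 99.7, 101 and 139.9 CPM (0.50 ± 0.05). For these genes too the clone c libraries stood above all a and b libraries of their treatment. Members of the gene lists called higher on chromosome 8 included the E-cadherin gene Cdh1 (0.46), the integrin chain Itgb1 (0.43) and the replication helicase subunit Mcm5 (0.32). The adhesion receptor Adgrg1 (0.83) is named by size of difference. The 3 genes of the chromosome that were lower in clone c, named after their values were seen, were Gpt2 (-0.58), which makes alanine from glutamate, the stress gene Herpud1 (-0.31) and Got1l1 (-0.30).

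**Figure D1:**
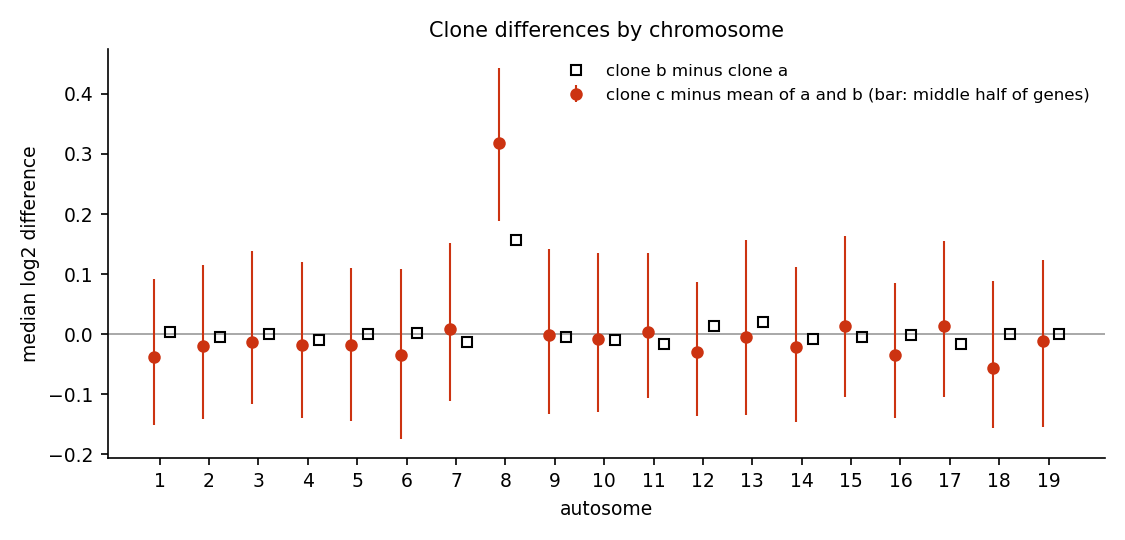
Median log2 difference of tested genes on each autosome: filled points, clone c minus the mean of clones a and b, with bars over the interquartile range of genes; open squares, clone b minus clone a. Chromosome 8 stands at 0.32 for clone c and 0.16 for clone b, and the filled points of all other autosomes lie between -0.06 and 0.01.

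The clones differed along chromosome 8 in a stepped way. In the first 75 tested genes, from Insr to Myom2 (3.12 to 15.1 Mb, GRCm38), clone b was below clone a for 93.3% of genes (median -0.27), and clone c was close to clone a (median -0.04). In the 618 tested genes from Mcph1 onwards (18.6 to 129 Mb) the medians were 0.17 for clone b minus a and 0.43 for clone c minus a, which is 1.12-fold and 1.34-fold, and 95.8% of genes were higher in clone c than in a. Clone c was above clone b on both sides of the step, by a median of 0.23 before it and 0.25 after it. The step was of like size in the untreated and the treated libraries: clone b minus a was -0.26 and -0.25 before it and 0.17 and 0.16 after it, and clone c minus a was -0.06 and -0.03 before it and 0.42 and 0.40 after it. The gene between them, Csmd1, was left out, the limits were set after the values were seen, and these differences share libraries.

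Of the 66 genes called between clones b and a, 37 lay on chromosome 8, 11 of them lower in clone b and before the step and 26 higher and after it. The step was placed from these same values, so this describes it and adds no support. Col4a2, a basement membrane collagen before the step, read 57.6, 35.6 and 52.4 CPM without 4OHT and 23.1, 15.7 and 22.7 CPM with it. Clone b was the lowest in both treatments (b minus a -0.65, adjusted p = 0.0028). Its neighbour Col4a1 read 136, 90.03 and 132 and 38.7, 32.05 and 45.3 CPM, with clone b again the lowest (b minus a -0.49). Ckap2, a spindle protein gene after the step, read 126, 153 and 175 CPM untreated and 106, 127 and 140.4 CPM treated, in the order a, b, c in both (b minus a 0.27, edgeR adjusted p = 0.044). These genes and the next were chosen after their values were seen. Among the other 29 genes called between b and a, the largest difference was in Sox6, a SOX transcription factor on chromosome 7, with 24.6, 51.4 and 21.2 CPM untreated and 14.7, 43.8 and 10.96 CPM treated (b minus a 1.26, adjusted p = 9.0e-05).

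**Figure D2:**
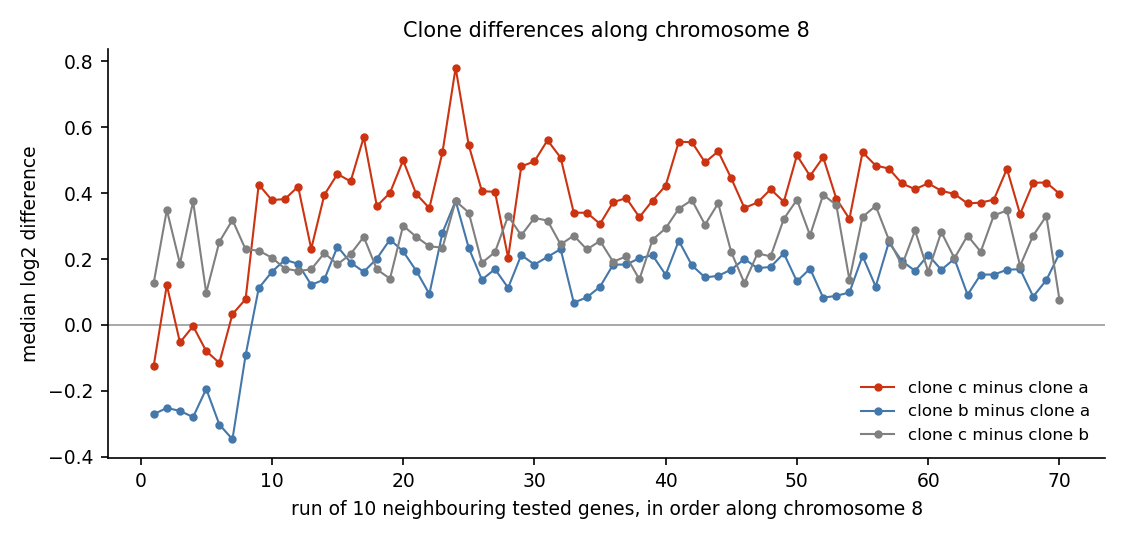
Medians of 3 log2 differences in runs of 10 neighbouring tested genes in their order along chromosome 8. Clone b (blue) lies below clone a in the first 8 runs and above it from run 9 on, clone c rises against clone a at the same place, and clone c stays above clone b throughout.

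Genes of amino acid supply were lower in clone c. The ATF4 programme is a set of genes that the transcription factor ATF4 turns on when amino acids or protein folding are limiting, and it includes enzymes for serine, asparagine and proline synthesis, amino acid transporters and stress regulators. This list and those below were chosen with earlier results of these data known, so their counts are a description and no independent support. Of 25 tested members of the list, 15 were lower and none higher in clone c, against 6.38% and 5.79% of all tested genes. The median difference was -0.56, against -0.003 over all genes. Both clone c libraries lay below all a and b libraries for 18 of the 25, as for 2999 of the 13,283 genes, and clone b minus clone a had a median of -0.03. Within the untreated libraries the median was -0.36 and within the treated ones -0.69. The median over both was -0.53 for the members not on chromosome 8 and -0.55 after centring on genes of like span.

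Stc2, a secreted glycoprotein (chromosome 11, 31,357,307 to 31,370,074), read 21.6, 17.5 and 7.74 CPM untreated and 63.4, 57.8 and 21.6 CPM after 4OHT. The treated clone c library equalled the untreated level of clone a, and the groups did not overlap within either treatment (-1.43 ± 0.12, edgeR adjusted p = 4.6e-06). Chac1, an enzyme that breaks down glutathione (chromosome 2, 119,351,229 to 119,354,381), read 17.2, 15.4 and 10.1 CPM untreated and 40.7, 42.3 and 13.3 treated, where clone c stayed below even the untreated libraries of a and b (-1.18 ± 0.16, adjusted p = 3.0e-04). Psat1, an enzyme of serine synthesis, read 137, 130.2 and 93.8 and 214, 214 and 129.9 CPM (-0.61 ± 0.06, adjusted p = 1.8e-05). Aldh18a1, which starts proline synthesis, read 68.5, 71.7 and 49.00 and 111, 112 and 69.3 CPM (-0.60 ± 0.06). Clones a and b were close to each other for these enzymes and clone c was lower in both treatments. Vldlr, a lipoprotein receptor, differed by -1.17 ± 0.18. The neutral amino acid transporter Slc1a4 read 45.2, 39.8 and 26.5 CPM untreated and 46.1, 47.1 and 17.97 treated (-0.96 ± 0.12), and clone c was lowest in both. Slc1a4 and Pck2, the mitochondrial enzyme that makes phosphoenolpyruvate (-0.97 ± 0.10), came among the 15 largest differences by rule and are not on the list.

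Other members are named here after their values were seen. The transporter of arginine and lysine Slc7a1 differed by -0.56 ± 0.07, and the cystine importer Slc7a11, which overlaps Gm37498, by -0.81 ± 0.20. The asparagine synthetase gene Asns read 283, 282 and 207 CPM untreated and 317, 330.2 and 176 treated (-0.65 ± 0.07, adjusted p = 5.9e-05), the folate enzyme gene Mthfd2, which overlaps Gm43890, 81.9, 88.1 and 60.5 and 160.4, 157 and 94.1 (-0.63 ± 0.07), and the pseudokinase gene Trib3 27.4, 29.00 and 21.5 and 35.5, 35.6 and 17.4 (-0.67 ± 0.12). All were lowest in clone c in both treatments. The gene of the factor, Atf4, read 134, 129 and 129.6 CPM untreated and 222, 209 and 197 treated, so that its transcription was not called different (-0.08 ± 0.05, adjusted p = 0.38), and the RNA measured here does not report ATF4 protein. In a bulk sample, fewer cells making a transcript and less of it per cell cannot be told apart.

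Of the 15 ATF4 members that were lower, 4 had a match to the motif described next within the promoter window, and 3 of those 4, picked for the match, are shown by the 250 bases before the start, 5′ to 3′ on the strand of the gene, from the RefSeq promoter table of GRCm38.p6. Capitals mark matches to TGATGNAA on either strand, the core shared by composite sites for C/EBP and ATF factors.
Asns (chr6:7693210-7693459, minus strand): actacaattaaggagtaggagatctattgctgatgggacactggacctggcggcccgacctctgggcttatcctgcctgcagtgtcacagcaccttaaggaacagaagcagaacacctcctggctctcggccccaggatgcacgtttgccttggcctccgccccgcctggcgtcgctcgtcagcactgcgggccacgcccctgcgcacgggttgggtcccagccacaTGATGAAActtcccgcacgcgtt
Chac1 (chr2:119350992-119351241, plus strand): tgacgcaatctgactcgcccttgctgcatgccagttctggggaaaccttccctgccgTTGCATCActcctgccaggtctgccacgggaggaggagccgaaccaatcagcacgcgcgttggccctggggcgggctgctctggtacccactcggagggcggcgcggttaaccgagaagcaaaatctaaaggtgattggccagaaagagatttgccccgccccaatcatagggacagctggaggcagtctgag
Slc7a11 (chr3:50443614-50443863, minus strand): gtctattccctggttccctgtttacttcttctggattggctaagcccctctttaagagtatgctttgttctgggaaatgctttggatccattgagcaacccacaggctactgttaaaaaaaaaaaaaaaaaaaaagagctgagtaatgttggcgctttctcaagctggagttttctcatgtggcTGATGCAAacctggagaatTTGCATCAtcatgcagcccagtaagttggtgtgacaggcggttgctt
The match began 23 bases before the start in Asns and 193 in Chac1, and the 2 matches of Slc7a11 began 66 and 47 bases before it. Within 300-base windows, which add 50 bases after the start, 7 of 24 tested ATF4 members with a promoter in the table had a match (29.2%), as did 4.06% of all 27,025 promoters and 2.26% of the 10,217 tested genes found in the table. The 7 were Asns, Chac1, Slc7a11, Trib3, Nupr1, Pycr1 and Got1, of which the last 3 were not called between the clones. A match was found in 4 of the 15 members that were lower (26.7%), in 25 of the 683 lower genes with a promoter in the table (3.66%) and in 3.14% of the lower genes outside the list. The table held 76.9% of the tested genes, so these shares leave out the rest. The list was drawn up as an ATF4 programme, so its share of matches against other promoters does not bear on the clone difference. A match of letters is a description of sequence only.

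**Figure D3:**
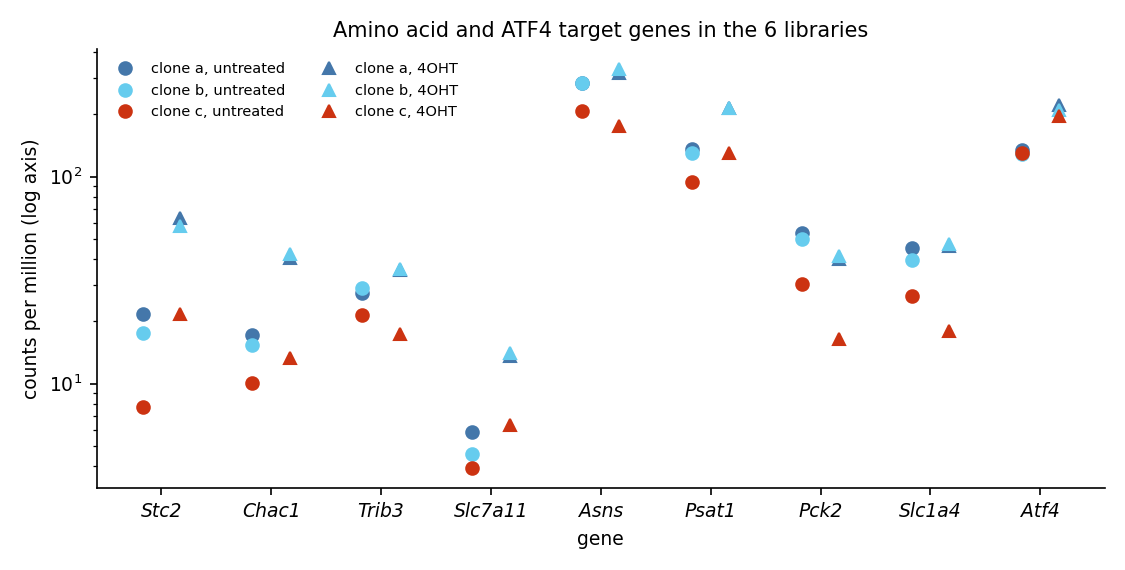
CPM values (log axis) of 9 genes in the 6 libraries: colours mark the clones, circles untreated and triangles 4OHT libraries. For Stc2, Chac1, Trib3, Slc7a11, Asns, Psat1, Pck2 and Slc1a4 the red points of clone c lie below those of clones a and b in each treatment, while the 6 Atf4 values pair up by treatment.

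Immediate early genes, which ERK switches on within minutes and which mostly encode transcription factors, were higher in clone c. Of 30 tested, 15 were higher than in clones a and b and none lower, against 5.79% and 6.38% of all tested genes. This list too was chosen with earlier results of these data known. The list median was 0.28 (0.24 for the 26 not on chromosome 8), against -0.003 over all genes. Within the untreated libraries the median of the list was 0.45, and within the treated ones 0.12. Without the treated library of clone c the median was 0.47. Arc, a gene induced by neuronal activity and growth factors, read 12.98, 10.6 and 16.7 CPM untreated and 898, 866 and 1313 after 4OHT (0.56 ± 0.06, adjusted p = 4.8e-05). Zfp36, whose product speeds mRNA decay, read 18.2, 19.8 and 27.2 and 77.3, 78.8 and 109 CPM (0.50 ± 0.07). In both, clone c was the highest of each treatment. Klf6 read 101, 111 and 187 CPM untreated and 313, 346 and 391 treated (0.52 ± 0.09), with the larger separation in the untreated cells. The chromosome 8 members Junb, which overlaps Prdx2, and Jund and Ier2, named after their values were seen, differed by 0.70 ± 0.11, 0.65 ± 0.10 and 0.48 ± 0.07, and Junb was also higher in clone b than in a (0.41). Egr1 was called (0.29 ± 0.08, adjusted p = 0.031), with 53.6, 59.1 and 85.9 CPM untreated and 3681, 3834 and 3985 treated. Fos was not (-0.08 ± 0.09, adjusted p = 0.61), nor was Myc (0.15 ± 0.14).

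Feedback genes of the ERK pathway were divided. Of 26 tested members 8 were higher, 5 lower, and the median was 0.14, which was 0.077 without the untreated library of clone b, 0.086 without that of clone c, and 0.21 when its treated library was left out. The phosphatase Dusp5, which holds ERK in the nucleus, read 9.70, 10.9 and 14.3 CPM untreated and 135, 141 and 208 after 4OHT (0.57 ± 0.07), and Dusp1, which overlaps Ergic1 and Gm8225, read 21.2, 23.99 and 35.7 and 139.8, 143 and 186 (0.49 ± 0.07). Clone c was highest in both. Phlda1, chosen after its values were seen, read 1.28, 1.06 and 4.31 CPM untreated and 108, 87.1 and 138 with 4OHT (0.62 ± 0.14). On the lower side stood Lrig1, which promotes receptor breakdown and overlaps Slc25a26, with 133, 129 and 98.9 and 77.2, 64.8 and 48.5 CPM (-0.46 ± 0.07), and the RAF inhibitor Spred2, also chosen afterwards (-0.27 ± 0.05). Dusp6 (0.03 ± 0.08) and Spry4 (-0.07 ± 0.11) were not called. Of 25 kinases and adaptors of the pathway, 1 was higher and 4 lower, among them Rps6ka2, a kinase activated by ERK (-0.51), and Sos1, a RAS activator that overlaps Arhgef33 (-0.23).

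Naive pluripotency genes, which keep embryonic stem cells in the state of the early epiblast, included several that were lower in clone c. Of 25 tested, 7 were lower and none was higher, against 6.38% and 5.79% of all tested genes. The median was -0.13, which was -0.26 without the untreated library of clone c and -0.08 without its treated one. Within the untreated libraries 4 were lower and 2, Klf2 and Zfp42, higher (median -0.07), and within the treated ones 7 were lower and none higher (median -0.25). Clone b was also below clone a (median -0.08, 3 called lower, against 0.226% of all genes), and the list median had the order a, b, c from high to low in both treatments. Esrrb, a nuclear receptor, read 729, 680.1 and 553 CPM untreated and 305, 273 and 206 after 4OHT (-0.41 ± 0.06, adjusted p = 2.9e-04). Tfcp2l1, a LIF target, read 275, 261 and 209 and 159, 138 and 113 (-0.38 ± 0.06), and Nr5a2 read 259, 282 and 216 and 231, 234 and 188 (-0.32 ± 0.05). Clone c was lowest in each treatment for all of them. Nanog (-0.10 ± 0.09) and Klf4 (0.07 ± 0.06) were not called, and neither were the core factors Pou5f1 (-0.05 ± 0.05) and Sox2 (-0.09 ± 0.05). Nanog read 318, 298 and 335 CPM untreated and 117, 103 and 79.8 treated. Clone c was thus its highest library untreated and its lowest after 4OHT. Of 17 general pluripotency genes 2 were higher and 2 lower, Utf1 by 0.51 and Dppa5a by -0.31. The LIF receptor subunit Il6st was lower (-0.36). The list of formative and primed genes had 16 tested members, 3 of them higher and 1 lower, and a median of 0.14: Cldn6, a tight junction gene, differed by 0.42, Dusp4 on chromosome 8 by 0.35 and Tead2, which overlaps Cd37, by 0.32, while Otx2, which overlaps Gm49154, was lower (-0.66). Tead2 is named after its value was seen.

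Several trophoblast genes were higher, and so were the keratins Krt8 and Krt18. Of 8 tested keratins these 2 were the only ones called. Krt7, named after its values were seen, read 8.98, 6.76 and 6.96 CPM untreated and 8.57, 5.69 and 8.33 treated, so clone c was not the highest. The trophoblast is the outer layer of the blastocyst. Of 13 tested genes of the trophoblast list 6 were higher and 1 lower, against 5.79% and 6.38% of all tested genes. Its members too were chosen with earlier results of these data known. The list median was 0.22, which ran from 0.13 without the treated library of clone b to 0.43 without the treated library of clone c. Krt8 (chromosome 15, 101,996,698 to 102,004,482), a keratin of simple epithelia, read 12.7, 12.3 and 20.1 CPM untreated and 45.2, 41.8 and 80.1 after 4OHT (0.80 ± 0.09, adjusted p = 4.8e-05). Its partner Krt18 read 8.02, 7.06 and 13.03 and 26.96, 25.98 and 45.3 CPM (0.78 ± 0.10), and the transcription factor Gata2 6.57, 6.60 and 11.96 and 6.17, 6.43 and 12.9 (0.93 ± 0.14). Clones a and b were close for all 3 genes, and clone c was highest in each treatment. The gene for AP-2γ, Tfap2c, was the member that was lower, at 84.5, 85.6 and 70.95 and 54.8, 52.2 and 38.7 CPM (-0.34 ± 0.07), and it too is named after its values were seen. The summed level of the list was 289 and 292 CPM in untreated clones a and b and 319 in c, and 453, 396 and 554 CPM after 4OHT, so that clone c was highest in each treatment. Of 17 tested primitive endoderm genes edgeR called 0, with 5 at an unadjusted p below 0.05 and 0 by DESeq2.

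Cell cycle genes included higher members and few lower ones, to be read beside 5.79% higher and 6.38% lower over all tested genes. Of 29 cyclins, cyclin-dependent kinases, E2F factors and inhibitors, 9 were higher and none lower (median 0.15), including the S phase cyclin Ccne2, which overlaps Ints8 (0.48), the G1 cyclin Ccnd1 (0.52), the inhibitor Cdkn1a (0.36) and, on chromosome 8, the repressor E2f4 (0.44). Of 31 S phase and mitosis genes 7 were higher, 1 was lower, and the median was -0.01, Rrm2, which makes deoxynucleotides, differing by 0.40 ± 0.05. Replication-dependent histone genes, which are transcribed in S phase, were higher for 27 of 58 and lower for none (median 0.42). Their median was 0.57 untreated and 0.19 after 4OHT, and over both treatments 0.22 without the untreated library of clone c. Clone b was also above clone a (median 0.28, 4 called), and the list median had the order a, b, c in both treatments. Hist1h1a, the gene of a linker histone, read 129, 153 and 222 CPM untreated and 131, 163 and 209 treated (0.59 ± 0.08). Histone genes are near copies of each other, and their single values are uncertain. A run of 50 neighbouring tested genes of the histone cluster on chromosome 13 (21,387,003 to 23,745,602) had a median of 0.39 and was the one run off chromosome 8, of 256 in all, to differ from the autosomal median by 0.25 or more.

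Gene length moved with the clone difference. In the shortest of 10 equal bins of genes by span (median 3.07 kb) the median difference was 0.11, with 10.3% higher and 0.83% lower, and in bin 9 (105 kb) it was -0.08, with 3.61% higher and 15.2% lower. In the longest bin (253 kb) it was -0.04, with 5.57% higher and 15.6% lower, so the median did not fall further with length. Genes higher in clone c had a median span of 16.6 kb and lower ones 78.5 kb, against 26.5 kb for all. The ribosomal protein genes are short, with a median of 3.81 kb. Of 37 tested, 8 were higher and none lower, against 5.79% and 6.38% of all tested genes. Their median of 0.12 became 0.01 once genes were centred on others of like span. For the histones that centring left 0.30, for the immediate early genes 0.24, for the trophoblast list 0.28 and for the naive list -0.11. The part of gene length in single calls was not tested.

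**Figure D4:**
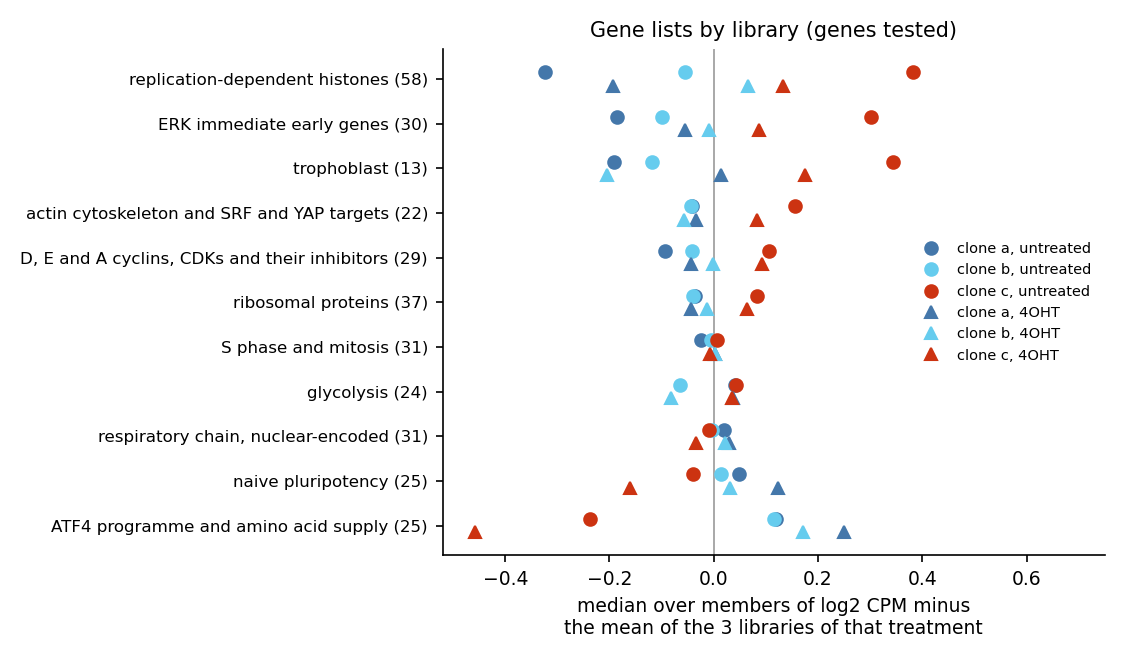
Median over the tested members of 11 gene lists in each library, on the log2 CPM scale, as deviations from the mean of the 3 libraries of the same treatment. Clone c (red) lies outside a and b in both treatments for the ATF4 list, on the low side, and for the immediate early, cyclin, actin and ribosomal protein lists, on the high side, while S phase genes of all libraries lie near 0.

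Glycolysis genes were divided: 8 of 24 were higher and 3 lower, against 5.79% and 6.38% of all tested genes. Ldhb, the lactate dehydrogenase subunit of oxidative tissues, read 449.7, 365 and 229.7 CPM untreated and 159.8, 130.04 and 91.3 after 4OHT (-0.76 ± 0.09, adjusted p = 8.5e-05), in the order a, b, c from high to low in both. Pfkp, a phosphofructokinase that overlaps Pitrm1, read 153, 129.5 and 93.9 and 607, 537 and 409 CPM (-0.53 ± 0.07). The lactate exporter Slc16a3 was higher (0.56), as was Gapdh, which overlaps Iffo1 (0.21). Of 30 lipid synthesis genes 4 were higher and 1 lower, the fatty acid synthase Fasn differing by 0.35 and the elongase Elovl6, which overlaps Gm43072, by -0.37. Acss1, which makes acetyl-CoA in mitochondria, read 52.3, 50.4 and 25.2 CPM untreated and 10.4, 7.18 and 4.53 treated (-1.02 ± 0.12). Clone c was lowest in each treatment. None of the 31 respiratory chain genes was higher and 2 were lower, against 5.79% and 6.38% of all tested genes.

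Adhesion and cytoskeleton genes moved both ways, in counts to be read beside 5.79% higher and 6.38% lower over all tested genes. Of 22 actin and SRF target genes 6 were higher and 1 lower, including Tagln2 (0.53) and Actb (0.29, with 521, 525 and 728 CPM untreated and 1009, 958 and 1051 treated). Of 27 cadherin and epithelial-mesenchymal genes 4 were higher and 3 lower. The mesenchymal genes Vim (-0.73 ± 0.13) and Zeb1 (-0.50 ± 0.09) were lower. Of 34 basement membrane, matrix and integrin genes 2 were higher and 5 lower, with fibronectin, Fn1, at -0.49 and Col18a1, which overlaps Slc19a1, at -0.34.

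In the BMP and NODAL pathways 5 of 40 genes were higher and 4 lower, against 5.79% and 6.38% of all tested genes. The BMP targets Id1 and Id2 were higher (0.87 ± 0.12 and 0.49 ± 0.10), Id1 at 16.8, 18.98 and 41.1 CPM untreated and 38.7, 35.3 and 54.4 after 4OHT. Id2 was also counted among the higher genes of the trophoblast list. The inhibitor Smad7 was lower (-0.27). Lefty1, a NODAL inhibitor with a near copy in Lefty2, read 179.9, 165 and 140.3 and 24.9, 19.9 and 7.60 CPM. Among 39 WNT genes 3 were higher and 4 lower, to be read beside the same shares. The lower ones included the repressor Tcf7l1, which overlaps Gm37736 and other predicted genes (-0.30), and the R-spondin receptor Lgr4 (-0.37). The NOTCH ligand Dll1 differed by -0.87 ± 0.17.

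Among imprinted genes, which are read from the copy of a single parent, 1 of 22 maternally expressed and 7 of 22 paternally expressed genes were called, 2 of the latter higher and 5 lower. Over all tested genes 5.79% were higher and 6.38% lower. Peg3 read 176, 185 and 141 CPM untreated and 106, 98.1 and 73.9 after 4OHT (-0.40 ± 0.06), and Mest, which overlaps Copg2, differed by 0.36. Of 24 tested genes from a list of germline genes kept off by promoter methylation 1 was higher and 1 lower. Both were transcribed in every library here, the higher one, Tex14, at 93.1 to 159 CPM, and methylation was not measured. That lower one, the piRNA pathway gene Rnf17, read 136, 113 and 65.3 CPM and 134, 116 and 64.01 CPM, with clone c lowest in both treatments (-0.95 ± 0.08, adjusted p = 7.1e-06). Of 21 DNA methylation genes Uhrf1 (0.19) and Dnmt1 (0.16) were higher, and Tet1, which overlaps Gm48353, was lower (-0.37) together with Cxxc5 (-0.21), named after its value was seen.

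Stress, survival and other pathway lists held calls in both directions, to be read beside 5.79% higher and 6.38% lower over all genes. Of 24 glutathione and NRF2 genes 4 were higher and 2 lower, and the glutathione reductase gene Gsr, like Hmox1 on chromosome 8, differed by 0.40 ± 0.07. The list of protein folding stress gave 4 higher and 2 lower of 27, with the chromosome 8 co-chaperone Dnajb1 at 0.51 ± 0.08 and the stress sensor Atf6 at -0.30 ± 0.05. Of 25 cell death genes 2 were higher and 2 lower, the lower ones being the BH3-only genes Bcl2l11 (-0.22) and Bmf (-0.54). Bmf had a difference of about 0 within the treated libraries. Of 20 hypoxia genes 1 was higher and 3 lower, the chromosome 8 oxygen sensor Egln1 at 0.49 and the hypoxia factor gene Epas1 at -0.45 ± 0.06. Of 26 p53 pathway genes 5 were higher and 2 lower. The LIF and STAT3 list was divided, with 5 of 21 higher, 3 lower and a median of -0.01. Among 31 Polycomb and H3K9 silencing genes 1 was higher and 2 lower, the latter being Mtf2, which overlaps Tmed5 (-0.28), and Rybp, which overlaps Gm44044 and Gm44045 (-0.24). Of the large families, the solute carriers were near the background, with 13 higher and 20 lower of 256. Of 337 numbered zinc-finger genes 22 were lower, near the background, and 9 were higher, a smaller share than over all genes. Of 61 lists and families with a tested member, 11 had no call by edgeR. One of these was the interferon and antigen presentation list, with 0 of 24 called by edgeR, 4 at an unadjusted p below 0.05 and 0 by DESeq2.

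The largest other differences, by a fixed rule, came from genes of mixed function. Higher were the kinase gene Pak6, at 3.29, 4.48 and 5.68 CPM untreated and 10.97, 9.65 and 25.6 after 4OHT (1.03 ± 0.18), the aminopeptidase Anpep, which overlaps Gm44974 (0.94 ± 0.13), the polarity gene Pard6a (1.00), Nat2 (0.95) and Cpne2 (0.91), the last 3 on chromosome 8, with Rftn1 (0.88), Slc25a24 (0.87), Kcnj12 (0.87), Rpusd1 (0.83), Arap3 (0.83) and Lgr6 (0.82). Lower were Mobp (-1.13), Rusc2, which overlaps Fam166b (-1.07) and was also lower in b than in a (-0.61), Cyb5r2, which overlaps Ppfibp2 (-0.99), Scara5 (-0.93), Rab3il1 (-0.92), the chemokine receptor Ackr3 (-0.89) and Sntg1, which overlaps Gm37005 and other predicted genes (-0.88). For Pak6 the clone c library was the highest in each treatment.

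The response to 4OHT was of the same scale in all clones. Across the 13,283 autosomal genes the log2 response of clone c had a major-axis slope of 1.03 on the mean response of a and b (Pearson's r 0.907, across genes, which are not independent replicates), and clone b had a slope of 1.00 on clone a (r 0.912). Among the 912 genes that rose by at least 1 log2 unit, the median response was 1.51, 1.46 and 1.56 in clones a, b and c, and among the 1302 that fell by as much it was -1.35, -1.36 and -1.34. Of all genes 4 had a larger log2 response in clone c (0.0301%) and 14 a smaller one (0.105%) at an edgeR adjusted p below 0.05, and 905 differed at an unadjusted p below 0.05, where smaller means lower on the signed log2 scale, a steeper fall included. By library size alone the split was 4 and 5. The clone letters pair the untreated and treated libraries, and with clone as a replicate block the calls were 122 larger (0.918%) and 179 smaller (1.35%), including all 18. That fit leaves 1 residual degree of freedom and leans on the spread shared across genes. DESeq2 called 1 larger and 1 smaller. Over chromosome 8 the median response difference was -0.002.

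Synj2, a lipid phosphatase gene that overlaps Serac1, had log2 responses of 2.20, 2.37 and 3.44 in clones a, b and c, the largest gain in clone c (1.16 ± 0.12, edgeR adjusted p = 0.0021). Speg, a muscle-type kinase, had responses of 0.90, 0.92 and 1.98 (1.08 ± 0.18), the RAC activator Tiam1 of -0.03, -0.06 and 0.47 (0.52 ± 0.08), and the glutamine transporter Slc38a1 of 1.35, 1.32 and 1.79 (0.45 ± 0.08). For all 4 genes clone c was the lowest of the untreated libraries and the highest of the treated ones. Synj2 read 44.0, 38.6 and 30.2 CPM untreated and 203, 200 and 329 treated in clones a, b and c. Slc38a1 read 268, 279 and 226 CPM untreated and 685, 697 and 779 treated. In each of the 4 the responses of a and b were close and that of c larger. The response calls set clone c against the spread between a and b, so that closeness is part of the choice and no further support. The treatment effect was not tested within a clone.

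Among the genes with a smaller response in clone c, several were already high in untreated clone c. The imprinted gene Peg10 read 366, 368 and 583 CPM untreated and 1493, 1415 and 1449.8 treated, so that the clones differed before 4OHT and met after it (-0.67 ± 0.07, adjusted p = 0.0021). Egr1 had responses of 6.10, 6.02 and 5.53 (-0.52 ± 0.09, adjusted p = 0.042), and of its values given above clone c stood apart in the untreated libraries. Id3, a BMP target, read 14.2, 14.3 and 27.7 and 55.6, 54.8 and 56.4 CPM with the same pattern (-0.93 ± 0.16). The integrin Itga9 had responses of 0.82, 0.96 and -0.03 (-0.93 ± 0.14), near 0 in clone c alone, and the zinc transporter Slc39a14 of 2.42, 2.28 and 1.61 (-0.74 ± 0.12). The fall was steeper in clone c for Lefty1, at -2.84, -3.04 and -4.17, and for the naive factor Klf2 on chromosome 8, at -0.78, -0.94 and -1.61. Zfp42, another naive marker on chromosome 8, had responses of 0.84, 0.77 and 0.40. Txnip, an inhibitor of thioredoxin, had responses of -0.08, -0.21 and -0.81, Nlrp12 of -0.50, -0.70 and -1.22, and Cntnap5b, which overlaps Gm37877, of 0.42, 0.29 and -0.77. Lars2 and Gphn are among the 13 genes with the most counts, and their responses were 0.33, 0.44 and -0.10 and 0.39, 0.50 and 0.01. Lefty1, Zfp42 and Gphn are named outside the rule, after their values were seen.

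In the fit with the replicate block, 7 of the 25 tested ATF4 genes had a smaller response in clone c and none a larger one, against 0 called by edgeR without the block, where 12 had an unadjusted p below 0.05 and DESeq2 called 0. The median response of that list was 0.54, 0.40 and 0.06 in clones a, b and c, against 0.01, -0.001 and -0.02 over all genes. The 7 were Asns, Chac1, Trib3, Sesn2, Psph, Cth and Ddit4, named after their values were seen. Smaller blocked responses were also called for 5 of 30 immediate early genes, 5 of 25 naive genes and 10 of 58 histone genes, against 1.35% of all genes. Without the block edgeR called 1, 2 and 0 genes of these lists, where 7, 4 and 13 had an unadjusted p below 0.05, and DESeq2 called 0 in each. The median histone responses were 0.17, 0.15 and -0.18 in clones a, b and c.

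**Figure D5:**
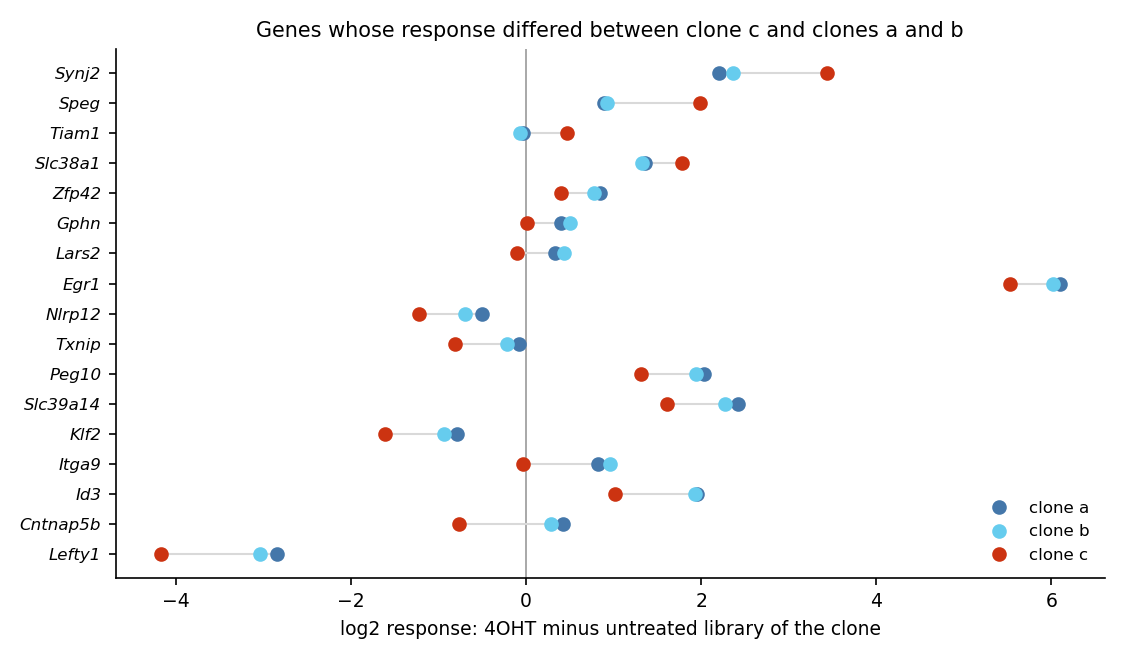
Log2 response to 4OHT in each clone (4OHT minus untreated library) for 17 of the 18 autosomal genes whose response was called different between clone c and clones a and b. Clones a and b lie close together for every gene, and clone c lies to the right for Slc38a1, Tiam1, Speg and Synj2 and to the left for the other 13. The genes were called against the spread between a and b, so that closeness is part of their choice.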

How the data were processed

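Newly made RNA (EU-seq) was measured in 6 libraries. The deposited values are whole-number counts per gene symbol, made with STAR and featureCounts on mm10 per the submitters' processing notes, with versions, counted features and strand not given in the sources used here. Reads of overlapping genes therefore cannot be told apart. Symbols were placed by GENCODE M21 (25,618 of 25,899 once).

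edgeR 4.0.16 in R 4.3.3 (quasi-likelihood test, TMM, genes filtered at a minimum count of 10 and a total of 15) was fitted with treatment and clone c as terms, and for the response with 4 group means. P-values were adjusted by Benjamini-Hochberg over all genes tested. DESeq2 1.42.0, limma 3.58.1, other scalings and filters, single libraries left out and a replicate block were alternatives. The fits were run on simulated data with planted differences. Libraries were drawn independently there, so other deviations shared by the libraries of a clone were not covered. Same-lettered libraries deviated together (r 0.284, 0.167 and 0.358 for clones a, b and c), and the labels' clone letters give the pairing. Intervals of counting are not given, and the floors cover counting error only.

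Named genes were the 15 largest differences each way beyond all a and b libraries, up to 3 called members a list by adjusted p, up to 10 response differences each way, a fixed set of control genes and up to 4 genes on chromosome 8. A few genes that the rule names are not reported here. The members and lists were chosen with earlier results of these data known. The chromosome 8 segments and the centring on gene span were chosen after seeing the data. A check of promoter composition was void, since the RefSeq table held 76.9% of tested genes.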

Additional observations from a re-analysis of the deposited data

Results flagged for a closer look

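The log2 response to 4OHT differed between clone c and clones a and b, by edgeR's test of the difference itself, for 18 autosomal genes, of which 17 are given. The response of clone c exceeded that of a and b by 1.16 for Synj2, 1.08 for Speg, 0.52 for Tiam1 and 0.45 for Slc38a1. The other 13 differences were negative: -1.27 for Lefty1, -1.14 for Cntnap5b, -0.93 for Id3, -0.93 for Itga9, -0.75 for Klf2, -0.74 for Slc39a14, -0.67 for Peg10, -0.66 for Txnip, -0.62 for Nlrp12, -0.52 for Egr1, -0.48 for Lars2, -0.44 for Gphn and -0.41 for Zfp42. Synj2 and Peg10 had the smallest adjusted p (0.0021 for both by edgeR), and each rested on 1 treated and 1 untreated library of clone c.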

How the results depend on the processing

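Counts of genes higher and lower in clone c than in a and b were 347 and 381 at an adjusted p below 0.01, 31 and 23 at a log2 difference of at least 1, 400 and 530 with DESeq2, 383 and 257 in the treated libraries alone, and 457 higher without chromosome 8. In the untreated libraries alone 551 were lower. Leaving out 1 library gave 337 to 744 higher and 312 to 774 lower. Larger and smaller responses numbered 1 and 1 at 0.01, 2 and 2 at a log2 difference of 1, 1 and 1 with DESeq2, and 122 and 179 with the replicate block. Smaller responses numbered 5 by library size only and 26 with no filter. Leaving out a library of clone a or b gave 5 to 14 larger and 23 to 65 smaller. For clone b above and below a the counts were 3 and 8 at 0.01, 1 and 0 at a log2 difference of 1, 61 and 81 with no filter, 1 and 3 with DESeq2, 18 above with CPM of at least 1 in 2 libraries, 48 below with DESeq2 size factors, and 1 to 285 above and 1 to 284 below on leaving out 1 library. Clone c above and below a gave 521 and 487 at 0.01, 42 and 33 at a log2 difference of 1, 331 and 345 with DESeq2, and 508 to 1113 and 417 to 1163 on leaving out 1 library. Clone c above and below b gave 232 and 315, 29 and 18, 115 and 235, and 155 to 856 and 144 to 1017. The causes were not tested, beyond fewer libraries or a stricter threshold where those are the change.

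The chromosome 8 median stayed between 0.278 and 0.358 over its alternatives, and the replicate block left 178 of 180 named called genes called. DESeq2 kept 143 of these calls, and leaving out the untreated or the treated library of clone c kept 117 and 104. Without the untreated library of clone c the sign changed for Bmf clone c minus a and b (0.000346, and 0.002048 in the treated libraries alone) and for Cntnap5b clone c minus a and b (-0.0905, and -0.0888 in the treated libraries alone). Over single libraries left out these ran from -0.647 to 0.000346 and from -0.0905 to 1.02. So did the medians of the ETS factors and FGF ligands and receptors (-0.0322 to 0.0819 over libraries left out) and of the HOX genes (-0.174 to 0.232). The response difference without either library of clone c could not be fitted, and fits of it, or of pairs of clones, without both libraries of a clone were not run. Clone c is a single clone with 2 libraries, the shallowest of each treatment, so clone, culture and library cannot be told apart.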

Other observations

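The genes of cytosolic aminoacyl-tRNA synthetases, which load amino acids onto tRNAs and many of which are known targets of ATF4, were lower in clone c. The family was taken up after the value of Cars was seen. Of 20 tested, 12 were lower and 3 higher by edgeR, against 6.38% and 5.79% of all tested genes. Their median was -0.29, and clone b minus clone a had a median of -0.004. Cars, the cysteine enzyme, differed by -0.63 ± 0.05 (edgeR adjusted p = 2.3e-06), Gars, the glycine enzyme, by -0.62 ± 0.06, Nars, the asparagine enzyme, by -0.60 ± 0.07, and Sars, the serine enzyme, by -0.58 ± 0.06. The 3 that were higher were Kars (0.50) and Farsa (0.39) on chromosome 8, and Vars (0.22). Dars, Hars, Rars, Qars and Aars were not called, with values between -0.04 for Dars and 0.11 for Qars. Of 17 mitochondrial synthetase genes, 1 was higher (Lars2, 0.31) and none lower, 1 of them at an unadjusted p below 0.05 on the lower side (Nars2, -0.23), and their median was 0.01.

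Some of the largest positive differences of clone c lay in predicted genes that the naming rule passed over, and they too were chosen after their values were seen. Gm10801 and Gm10800 on chromosome 2 differed from clones a and b by 2.01 ± 0.16 and 1.39 ± 0.08 on the log2 scale (edgeR adjusted p = 3.8e-06 and 9.0e-08), Gm21738 on chromosome 14 by 1.49 ± 0.21 and Gm10717 on chromosome 9 by 1.34 ± 0.26. None of them was called between clones b and a. How reads shared by repeats or near copies were counted is not given, so their single values are uncertain.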
